A study of Mus musculus with 2 samples.

Results

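The genes described here are 8 transcription factors that prepare the mouse uterus for the embryo: Hand2, Nr2f2, Gata2, Sox17, Msx1, Msx2, Foxo1 and Cebpb. They were taken by gene symbol from a table of 22740 genes, and all 8 were found in it. RNA was sequenced from whole uterus of 2 C57BL/6 mice labelled WT, each on day 4 of pregnancy, with 1 library per animal, here called uterus 1 and uterus 2. The labels name no transgene, deletion, agent or age, and there is no second group, so the data give the level of each gene and how far 2 animals differed. Whole uterus mixes epithelium, stroma, muscle, vessels and blood cells. A lower value from fewer cells of a type cannot be told apart from one with less RNA per cell.

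On day 4 ovarian progesterone, followed by a small rise in oestrogen, brings the mouse uterus into a short phase in which a blastocyst can attach. In the luminal epithelium Gata2 is known to support the progesterone receptor, and Sox17 acts with that receptor on Indian hedgehog (Ihh). Ihh signals to the stroma beneath, where Nr2f2 (COUP-TFII) and then Hand2 are switched on, and Hand2 holds back fibroblast growth factors that would keep the epithelium dividing. Msx1 and Msx2 are homeobox repressors that loosen epithelial polarity through Wnt signalling. Foxo1 is a forkhead factor held outside the nucleus by insulin and AKT signalling, and Cebpb is a leucine zipper factor needed for stromal cells to become decidua.

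Values are RPKM as deposited by the authors, that is, reads divided by transcript length in kilobases and by library size, so levels of different genes can be compared. The reads behind each value were recovered from the RPKM and summed to 3749604 in uterus 1 and 4165514 in uterus 2. Intervals given with reads are 95% intervals that cover counting error only and not the spread between animals. They take reads as independent, which copies made by PCR are not, so they can be too narrow. Markers of uterine tissue were present: 6 of 6 epithelial, 5 of 5 stromal, 4 of 4 smooth muscle, 5 of 5 endothelial and 4 of 4 leukocyte markers reached 1 RPKM in both uteri. Of 4 gland markers 3 did, and Prss28 lay at 0.877 and 0.987 RPKM. None of 4 blastocyst markers did, with Cdx2 listed at 0 in both. Of 4 decidual markers, Alpl (2.38 and 2.33 RPKM) and Bmp2 (2.39 and 1.03) reached 1 RPKM in both. The decidual prolactins Prl8a2 and Prl3c1 were listed at 0 in both. Of 6 ovary and oviduct markers Ovgp1 and Star reached 1 RPKM in both while Cyp19a1 and Fshr were listed at 0.

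Because several members belong to families with similar DNA-binding domains, their coding sequences were compared first, to show where a short read could fit more than 1 gene. Among the 43 pairs of a member and a relative that were compared, the longest shared coding run was 59 bases, between Nr2f2 and Nr2f1, in the part that encodes the zinc-finger domain. It is followed by 38 bases shared between Foxo1 and Foxo3, in the forkhead coding region.
Nr2f2 and Nr2f1: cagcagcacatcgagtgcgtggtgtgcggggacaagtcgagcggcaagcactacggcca
Foxo1 and Foxo3: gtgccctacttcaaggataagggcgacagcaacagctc
Reads that fall wholly inside such a run cannot be assigned to 1 gene. Among the same pairs the longest coding run was 29 bases for Sox17 (with Sox18), 29 for Cebpb (with Cebpa), 24 for Gata2 (with Gata5) and 17 for Hand2 (with Hand1). Not every pair of relatives was compared, and Cebpb with Cebpd, Sox17 with Sox1, and the 2 Msx members with each other are among those left out. Msx2 and Dlx6 share a run of 44 bases that is not coding in both. Read length is not given in the sources used here. The annotated transcripts of the members that these runs were sought in are 1504 to 5552 bases long.

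Of the 8 members, 7 reached 1 RPKM in both uteri, where 58.4% of all genes did, and 6 of them lay above 10 RPKM in both. The median of the 8 was 25.9 RPKM in uterus 1 and 28.2 in uterus 2, against 3.28 and 3.23 RPKM over all genes. By mean the order was Nr2f2, Sox17, Gata2, Hand2, Msx1, Foxo1, Cebpb and Msx2, and the top gene lay 78.5-fold above the last. For 5 of the 7 neighbouring pairs in this order the lower uterus of one gene lay above the higher uterus of the next. Gata2 and Hand2 overlapped, as did Foxo1 and Cebpb, and both pairs change places in uterus 2.

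**Figure D1:**
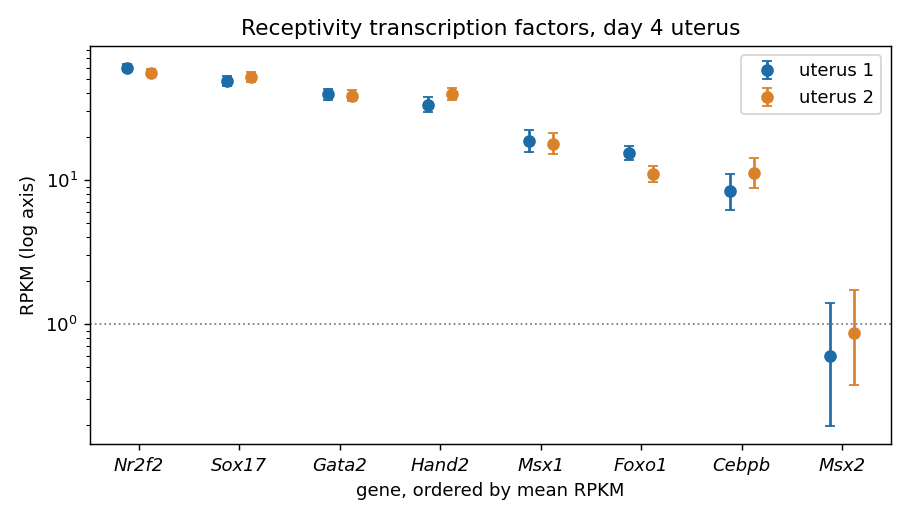
RPKM of each transcription factor (log axis) in uterus 1 (blue) and uterus 2 (orange), ordered by mean; bars are 95% counting intervals and the dotted line marks 1 RPKM. Nr2f2 to Hand2 lie between 33.3 and 60.04 RPKM, while Msx2 lies below 1 RPKM in both uteri.

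Nr2f2, the stromal orphan nuclear receptor, was the highest member. It lay at 60.04 RPKM in uterus 1 and 55.6 in uterus 2 (57.8 ± 3.15, SD, n = 2), on 1121 and 1152 reads. The counting intervals, 56.6 to 63.7 and 52.4 to 58.9 RPKM, overlapped. The gene (NM_009697) spans chromosome 7, 77496836 to 77505479, on the minus strand of NCBIM37. The values imply a transcript of 4870 bases, whereas its annotated transcripts are 4220 and 1664 bases, and its mean level would be 66.7 RPKM counted over 4220 bases and 169 RPKM over 1664.

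Among its relatives, Nr2f6 lay at 25.3 and 26.6 RPKM and Nr2f1 (COUP-TFI) at 1.93 and 2.42. Nr2f2 therefore held 68.8% and 65.7% of the summed RPKM of the 3 genes. Nr2f1, with which Nr2f2 shares the run shown above, rested on 18 and 25 reads.

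Genes of the route that switches Nr2f2 on were present from ligand to target. All 10 genes of the hedgehog list reached 1 RPKM in both uteri. Of the 10, 1 gene, Ptch1, was called different between the uteri (adjusted p 0.0458, exact binomial test), where 4.64% of all 15095 genes tested were. The ligand Ihh, made by the epithelium, lay at 7.58 and 10.4 RPKM. Its receptor Ptch1 lay at 43.6 and 36.9 RPKM, the signal transducer Smo at 50.5 and 45.5, and Gli1, a transcription factor that rises with the signal, at 40.1 and 42.9. Gli2 and Gli3 lay below 10 RPKM. The decoy receptor Hhip lay at 2.76 and 2.67 RPKM.

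Bmp2 and Wnt4, stromal genes that come on with decidualization, lay below the median of all genes in both uteri. Bmp2 lay at 2.39 and 1.03 RPKM on 23 and 11 reads, and Wnt4 at 1.501 and 1.84 RPKM on 22 and 30 reads. Bmp2 was more than 2-fold apart, but the exact binomial test on its reads gave a Benjamini-Hochberg adjusted p of 0.223, so it was not distinguishable at this depth.

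Hand2, a basic helix-loop-helix factor of the stroma, lay at 33.3 RPKM in uterus 1 and 39.5 in uterus 2 (36.4 ± 4.43, SD, n = 2), on 285 and 376 reads. Uterus 2 was the higher, by 1.19-fold with a 95% interval of 1.02 to 1.39. The exact binomial test gave an unadjusted p of 0.0291 and an adjusted p of 0.245, so Hand2 was not called. Of the 8 members 2, Hand2 and Foxo1, had an unadjusted p under 0.05 in this exact test, and 15.5% of all 15095 genes tested did. The gene (NM_010402) has 2 exons on chromosome 8, 59799780 to 59803314, on the plus strand, and the implied length of 2235 bases equals that of its only annotated transcript.

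Its closest relative Hand1 was listed at 0 in both uteri. Of the 6 other helix-loop-helix genes compared, 4 reached 1 RPKM in both, led by Twist2 at 28.2 and 27.0 RPKM and Tcf21 at 16.8 in both, 2 factors of mesenchymal cells. Hand2 exceeded Twist2 by 1.18-fold in uterus 1 and 1.46-fold in uterus 2. The E proteins with which such factors pair were all present, Tcf4 at 63.5 and 63.7 RPKM, Tcf12 at 36.5 and 36.2, and Tcf3 at 28.5 and 26.0. So were the Id proteins, which bind E proteins and keep them from DNA. Id3 was lower in uterus 2, at 61.3 and 40.7 RPKM (adjusted p 0.0029, exact binomial test), while Id2 lay at 46.1 and 50.1 RPKM, Id1 at 22.0 and 21.4, and Id4 at 8.80 and 7.78.

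Of 4 fibroblast growth factors that Hand2 is known to hold back, 2 reached 1 RPKM in both uteri. Fgf1 lay at 5.004 and 8.48 RPKM and Fgf2 at 6.38 and 2.70. Fgf9 lay at 0.567 and 0.568 RPKM on 9 and 10 reads, and Fgf18 at 1.44 and 0.433 on 6 and 2 reads. None of them passed the exact binomial test between the uteri, with adjusted p-values from 0.0536 for Fgf1 to 1 for Fgf9, and Fgf2, the only one more than 2-fold apart at a mean of at least 1 RPKM, rests on 17 and 8 reads (adjusted p 0.307). The list had a median of 3.22 RPKM in uterus 1 and 1.64 in uterus 2, beside 3.28 and 3.23 over all genes.

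Gata2, a zinc-finger factor, had the smallest spread relative to its mean of the 8 members, at 39.2 RPKM in uterus 1 and 38.5 in uterus 2 (38.8 ± 0.491, SD, n = 2), on 487 and 531 reads. The fold between the uteri was 0.982 with a 95% interval of 0.867 to 1.11. The gene (NM_008090) spans chromosome 6, 88148658 to 88157026, on the plus strand. A second annotated transcript starts further upstream, at 88143885, and RPKM per gene does not say which start was used.

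Gata2 led its family by a wide margin. It held 88.2% and 89.0% of the RPKM summed over Gata1 to Gata6. Gata6 was next at 3.84 and 3.60 RPKM, 10.2-fold and 10.7-fold lower, and the other 4 lay below 1 RPKM in both uteri. Gata2 is also known from endothelium, mast cells and blood progenitors. The mast cell gene Cpa3 lay at 5.03 and 6.63 RPKM, Kit at 8.61 and 7.30, and Gata1, the factor of red cell and mast cell precursors, had 1 read in each uterus. Of the red cell markers, Alas2 lay at 6.85 and 6.53 RPKM on 52 and 55 reads, and Klf1 at 0.510 and 0.459 RPKM. Of the 5 mast cell and red cell markers 3 reached 1 RPKM in both, and the 5 summed to 21.1 and 21.0 RPKM. The summed level of the 5 endothelial markers was 175 and 171 RPKM. The share of Gata2 RNA from each cell type was not tested.

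The progesterone receptor Pgr, known to be supported by Gata2 in the uterus, lay at 77.5 and 66.4 RPKM (adjusted p 8.7e-05, exact binomial test). Of the GATA cofactors, Zfpm1 lay at 6.32 and 7.01 RPKM, Zfpm2 at 1.73 and 1.65, and Lmo2 at 11.8 and 9.52. Tal1, a partner in blood and endothelial cells, fell from 2.82 RPKM in uterus 1 to 1.24 in uterus 2, on 45 and 22 reads (adjusted p 0.0329, exact binomial test).

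Sox17, an HMG-box factor of the epithelium that is also made by arterial endothelium, lay at 48.5 RPKM in uterus 1 and 51.6 in uterus 2 (50.1 ± 2.23, SD, n = 2), on 582 and 688 reads. The fold was 1.06 with a 95% interval of 0.952 to 1.19. The gene (NM_011441) spans chromosome 1, 4481009 to 4486494, on the minus strand. The implied length of 3130 bases equals 1 of its 2 annotated transcripts, a match that counted in choosing it. Counted over the other, of 1512 bases, the mean would be 103.7 RPKM above Nr2f2 at its deposited level but below Nr2f2 counted over 1664 bases, so the order of these genes rests on the transcript chosen.

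Of 16 other Sox genes, 7 reached 1 RPKM in both uteri, and Sox17 held 36.4% and 37.4% of the family's summed RPKM. Sox4 came close at 40.3 and 41.4 RPKM. The other members of the Sox17 subgroup, both known from vessels, were lower: Sox18 lay at 11.6 and 14.5 RPKM and Sox7 at 3.11 and 2.81. Sox9, a factor of glands, lay at 1.26 and 1.87 RPKM, and Sox14 and Sox21 were listed at 0. Foxa2, the factor that gland formation needs, lay at 3.07 and 5.19 RPKM on 25 and 47 reads.

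**Figure D2:**
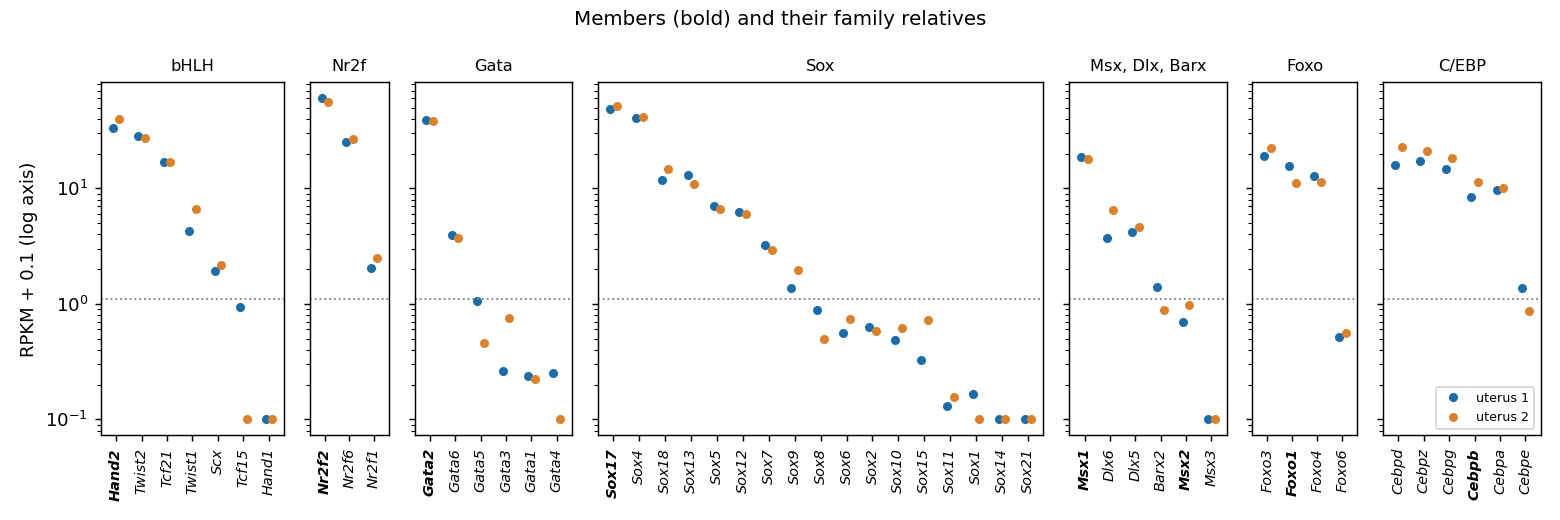
RPKM plus 0.1 (log axis) of each transcription factor (bold) and its family relatives in uterus 1 (blue) and uterus 2 (orange); the dotted line marks 1 RPKM. Gata2 and Nr2f2 stand well above their relatives, whereas Cebpb and Foxo1 lie among theirs and Msx2 lies far below Msx1.

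Msx1 and Msx2, the 2 members from 1 family, lay far apart in level. Msx1 lay at 18.6 RPKM in uterus 1 and 17.9 in uterus 2 (18.3 ± 0.532, SD, n = 2), on 138 and 147 reads. Msx2 lay at 0.603 and 0.869 RPKM (0.736 ± 0.188), on 5 and 8 reads, with counting intervals of 0.196 to 1.41 and 0.375 to 1.71 RPKM. Msx1 was 30.9-fold higher in uterus 1 (95% interval 12.9 to 96.7) and 20.6-fold higher in uterus 2 (10.2 to 48.5). The intervals are wide because Msx2 had so few reads, but the values of the 2 genes do not overlap. Msx3 was listed at 0.

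Msx1 (NM_010835) lies on chromosome 5, 38211730 to 38215824, and Msx2 (NM_013601) on chromosome 13, 53562250 to 53568149, both on the minus strand. An antisense gene, Msx1as, overlaps Msx1 from 38211803 to 38213990 and lay at 2.74 and 4.62 RPKM. Whether strand was used in counting is not stated, so reads of this overlap cannot be assigned to 1 of the 2 genes. The distal-less genes, another homeobox family, lay at 4.08 and 4.51 RPKM for Dlx5 and 3.65 and 6.36 for Dlx6.

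The 250 bases before the RefSeq start of each Msx gene are shown because both promoters can be set beside this difference in level. Capitals mark the motifs CCAAT and GGGCGG on either strand, which bind the factors NF-Y and Sp1. The regions are chr5:37824586-37824835 and chr13:53472781-53473030, both minus strand, of GRCm38.p6.
Msx1: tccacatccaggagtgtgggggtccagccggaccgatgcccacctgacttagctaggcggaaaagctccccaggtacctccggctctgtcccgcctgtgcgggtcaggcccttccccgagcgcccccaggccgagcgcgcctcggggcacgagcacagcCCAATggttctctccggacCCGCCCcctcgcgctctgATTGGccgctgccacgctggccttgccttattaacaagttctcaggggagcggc
Msx2: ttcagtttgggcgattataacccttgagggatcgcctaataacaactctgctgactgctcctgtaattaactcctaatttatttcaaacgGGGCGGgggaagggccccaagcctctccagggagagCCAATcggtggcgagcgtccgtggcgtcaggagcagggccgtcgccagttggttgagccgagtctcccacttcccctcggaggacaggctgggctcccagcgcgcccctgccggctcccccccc
Both hold both motifs, Msx1 with 2 copies of CCAAT and Msx2 with 1. A match describes the letters and does not show binding.

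Across the members, the RefSeq table of GRCm38.p6 gave 8 promoters for 7 genes, each of 300 bases (250 before the start and 50 after). The TATA box (TATAAA), the CCAAT box, the GC box (GGGCGG) and a homeodomain core (TAATTG) were searched on both strands, and no 2 different motifs overlapped in these promoters. GGGCGG was found in 7 of the 8, against 62.0% of 11978 promoters of protein-coding genes that reached 1 RPKM in both uteri. CCAAT was found in 6 of the 8, against 37.3% of those promoters. TATAAA was found only in the Cebpb promoter (7.2% of those promoters) and TAATTG only in that of Hand2 (4.8%). The Nr2f2 promoter differed from the other 7 in that it held 2 CpG pairs, whereas the others held 17 to 50 and the median over promoters of genes at 1 RPKM was 20. The promoter table lists 1 start or a few for each gene, and which start was used in these uteri is not known.

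Of the Wnt genes through which the Msx factors are known to act, 5 of 7 reached 1 RPKM in both uteri. Wnt5a was the highest of the 7 at 54.7 and 50.2 RPKM, followed by Wnt11 at 16.7 and 15.8. Wnt7a, an epithelial Wnt, lay at 1.64 and 1.63 RPKM, Wnt5b at 1.67 and 2.57, and Wnt7b at 0.650 and 0.266. Wnt16 was more than 2-fold lower in uterus 2, at 2.35 and 0.987 RPKM on 30 and 14 reads, but did not pass the exact binomial test (adjusted p 0.1003).

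Foxo1 was the member whose reads differed between the 2 libraries. It lay at 15.4 RPKM in uterus 1 and 11.003 in uterus 2 (13.2 ± 3.11, SD, n = 2), on 328 and 260 reads, and the counting intervals of 13.8 to 17.2 and 9.71 to 12.4 RPKM did not overlap. The fold was 0.714 with a 95% interval of 0.604 to 0.843, and the exact binomial test gave an adjusted p of 0.00257. Of 15095 genes tested in this way, 701 (4.64%) were called, with 2.48% of genes higher in uterus 1 and 2.17% higher in uterus 2. A count of 1 in 8 members is too small to set apart from that share. The test compares 2 libraries and not 2 conditions, and it takes no account of the spread between animals.

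On the log2 scale, with 0.1 RPKM added to each value, the difference was -0.48. Among 3942 genes within 1.5-fold of the mean level of Foxo1, the central 95% of differences ran from -0.49 to 0.47, so Foxo1 lay close to the edge but inside it. The number of reads depends on the transcript length. The implied length of 5552 bases equals the only annotated transcript of Foxo1 (NM_019739, 3 exons, chromosome 3, 52072259 to 52154031, plus strand). An annotated transcript on the opposite strand, RP24-337A16.1, overlaps it from 52072357 to 52073357, and reads there cannot be told apart without strand. The smallest whole reads that give the same ratio, 82 and 65, would give an adjusted p of 0.347 in the exact binomial test. But they imply a transcript shorter than the coding sequence of 1959 bases. Closeness to an annotated length counted in choosing 5552 bases, and read numbers between the smallest and those used were not tested.

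Markers of the tissues of the uterus were compared between the libraries as well. The 6 epithelial markers summed to 257 RPKM in uterus 1 and 289 in uterus 2, with 3 higher in each uterus. Krt18, at 70.4 and 94.3 RPKM, was the only one of them called (adjusted p 0.000686, exact binomial test), and Krt7 went the other way, at 12.99 and 10.07. The 5 endothelial markers summed to 175 and 171 RPKM. Kdr alone was called, at 22.9 and 16.6 RPKM (adjusted p 0.000198, exact binomial test), while the folds of the other 4 ran from 0.997 for Emcn to 1.04 for Tek.

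All 4 gland markers were higher in value in uterus 2, with sums of 53.6 and 83.0 RPKM, and none of them was called. All but 1 of the 4 leukocyte markers were higher there too, with sums of 60.3 and 67.9 RPKM and none called. The 5 stromal markers summed to 2456 and 2338 RPKM, although 4 of the 5 were higher in uterus 2, because Col1a1 lay at 1184 and 851 RPKM. Col1a1, lower in uterus 2, and Vim and Dcn, higher there, were called by the exact binomial test. Of the 4 smooth muscle markers, which summed to 1328 and 1318 RPKM, 3 were higher in uterus 2. Acta2 was lower in uterus 2 (adjusted p 3.6e-06) and Myh11 higher (adjusted p 8.1e-11, exact binomial test). The part of these cell types in the Foxo1 difference was not tested.

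The other FOXO genes were not called different. Foxo3 lay at 19.0 and 22.1 RPKM, above Foxo1 in both uteri, and Foxo4 at 12.8 and 11.2. Foxo6 lay at 0.413 and 0.465. Foxo1 held 32.4% of the family's summed RPKM in uterus 1 and 24.6% in uterus 2. Neither Foxo3 (adjusted p 0.457) nor Foxo4 (0.698) passed the exact binomial test, and whether their differences differ from that of Foxo1 was not tested.

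All 7 genes described from the signalling route that controls FOXO proteins reached 1 RPKM in both uteri, and none was called different by the exact binomial test. Akt1, the kinase that moves FOXO proteins out of the nucleus, lay at 79.4 and 70.5 RPKM, Pik3r1, a regulatory subunit of the lipid kinase upstream of it, at 51.7 and 53.8, and Sgk1, a related kinase that responds to steroids, at 15.7 and 16.2. Of 11 genes known as FOXO targets in other tissues, 10 reached 1 RPKM in both. Txnip, a thioredoxin inhibitor, rose from 127 to 168 RPKM on 1369 and 2005 reads (adjusted p 5.8e-13, exact binomial test). Bcl2l11, a cell death factor, fell from 9.32 to 6.48 RPKM on 180 and 139 reads (adjusted p 0.0335, same test). The 2 genes went in opposite directions, and whether either follows Foxo1 was not tested. The other 8 that were tested were not called, among them Cdkn1b at 24.6 and 27.4 RPKM and Insr at 18.3 and 18.8. The list thus had 2 calls in 10 tested targets, beside a share of 4.64% over the whole table. Whether these targets differed more than other genes with similar read numbers was not tested. Igfbp1, the FOXO target best known from human decidual cells, was listed at 0 in both uteri.

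**Figure D3:**
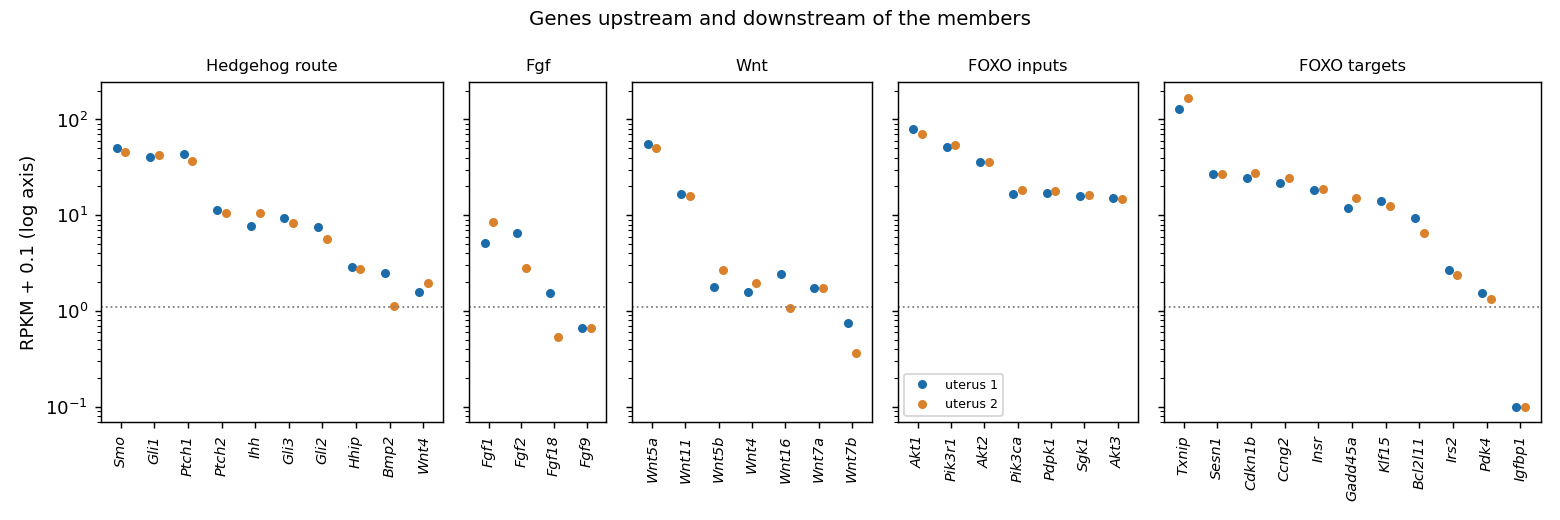
RPKM plus 0.1 (log axis) of genes upstream and downstream of the transcription factors in uterus 1 (blue) and uterus 2 (orange); the dotted line marks 1 RPKM. Hedgehog receptors and FOXO inputs lie above most of the Fgf and Wnt genes, and Igfbp1 is listed at 0.

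Cebpb lay at 8.32 RPKM in uterus 1 and 11.2 in uterus 2 (9.79 ± 2.07, SD, n = 2), on only 48 and 72 reads. Uterus 2 was 1.35-fold higher with a 95% interval of 0.925 to 1.99, and the exact binomial test gave an adjusted p of 0.498, so a difference was not detectable at this depth. The gene (NM_009883) is a single exon of 1504 bases on chromosome 2, 167514415 to 167515918, on the plus strand. An annotated transcript of Tmem189 on the opposite strand reaches into it, up to 167515322. Tmem189 lay at 14.1 and 17.0 RPKM, although its deposited span ends outside Cebpb.

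Cebpb was not the leading gene of its family. It held 12.5% and 13.4% of the RPKM summed over the 6 genes with a C/EBP name. Cebpd, which responds to inflammation, lay at 15.7 and 22.9 RPKM, Cebpg, which lacks an activation domain, at 14.7 and 18.1, and Cebpa at 9.48 and 9.97. Cebpz, which has the name but no leucine zipper, lay at 17.2 and 21.2 RPKM. Cebpe, a factor of granulocytes, lay at 1.26 and 0.759 on 6 and 4 reads. Two-sided exact binomial tests called none of them, with adjusted p-values of 0.136 and above. Of 14 genes listed as partners or inhibitors of the members, all reached 1 RPKM in both uteri, and the highest was Ctnnb1, the Wnt effector beta-catenin, at 221 and 218 RPKM. Atf4, a zipper partner of the C/EBP proteins, lay at 55.3 and 57.2 RPKM and Ddit3, a partner that rises with stress, at 10.2 and 16.2.

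Between the uteri, none of the 7 members that averaged 1 RPKM or more was 2-fold apart, where 2.6% of 13647 such genes were. Their median log2 difference was -0.03, against 0.0007 over those 13647 genes. Msx2 had a log2 difference of 0.46 on its few reads. In value 4 members were higher in uterus 2 (Sox17, Hand2, Cebpb, Msx2) and 4 in uterus 1 (Nr2f2, Gata2, Msx1, Foxo1). After Foxo1, Hand2 had the lowest adjusted p at 0.245, and those of the other 6 ran from 0.377 to 0.97 in the same exact binomial test.

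**Figure D4:**
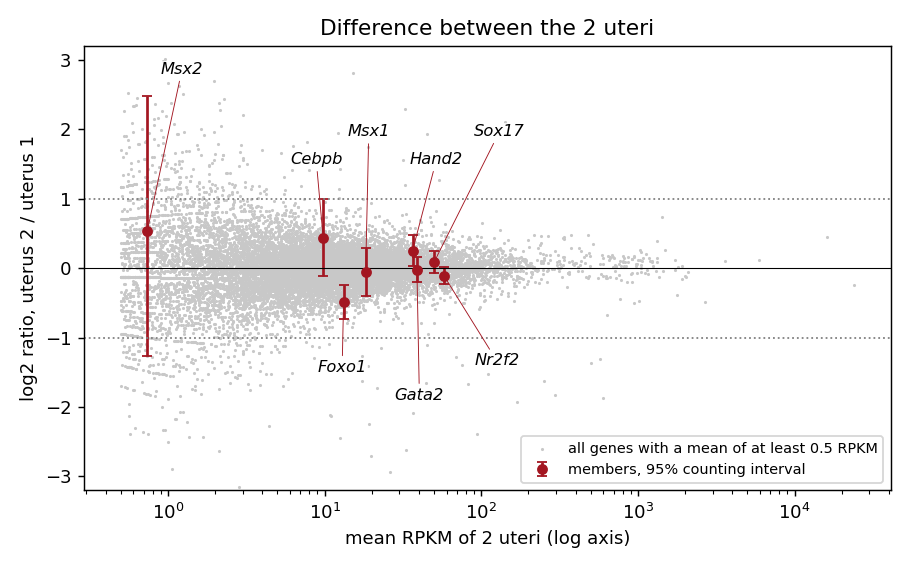
Log2 ratio of uterus 2 over uterus 1 against the mean RPKM (log axis); grey points are genes averaging 0.5 RPKM or more, with 0.1 RPKM added to each value, red points the 8 transcription factors without it and with 95% counting intervals, and dotted lines mark a 2-fold difference. All 8 lie between the dotted lines, and the unadjusted interval leaves out equal levels for Foxo1 and Hand2.

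Other transcription factors of receptivity served as a scale. All 16 of them reached 1 RPKM in both uteri, with a median of 31.5 RPKM in uterus 1 and 26.1 in uterus 2, beside 25.9 and 28.2 for the 8 members. Hoxa10, at 112 and 115 RPKM, and the oestrogen receptor Esr1, at 107 and 99.2, lay above every member. Stat3, which carries the signal of leukemia inhibitory factor, lay at 64.4 and 66.3 RPKM, and Klf5 at 4.23 and 4.90. By the exact binomial test 3 of the 16 were called, where 4.64% of all genes tested were. All 3 were lower in uterus 2, where 2.48% of all genes were called in that direction: Pgr, Epas1 (33.9 and 24.4 RPKM) and Arid1a (21.3 and 17.9 RPKM). These 3 rested on 556 to 2048 reads per library. The test calls smaller differences where reads are many, and these shares were not matched for read number. Whether the 16 differed more than other genes of like depth was not tested. Epas1, a hypoxia factor, had a log2 difference of -0.47, similar in size to that of Foxo1.

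With 2 libraries, likeness of pattern means only similar values in both. By Euclidean distance of log2(RPKM + 0.1), the nearest gene was Hsbp1 for Nr2f2, Becn1 for Sox17, Cdv3 for Gata2, Smek2 for Hand2, Tbl1xr1 for Msx1, Kctd2 for Foxo1, Snord11 for Cebpb and 5430427O19Rik for Msx2. The distances ran from 0.0027 (Gata2) to 0.035 (Foxo1). Between 13 genes (Msx2) and 168 genes (Msx1) lay within 0.1 of a member.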

How the data were processed

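RNA from whole uterus of 2 mice was measured, 1 library each; 1 ug of total RNA went into each TruSeq library, per the labels' protocols. The authors deposited RPKM in 2 tables that agree for all 22740 shared genes, and the smaller was used. The submitters' processing notes name TopHat, edgeR and build mm9 (the same assembly as NCBIM37) without versions; how reads were counted, on which gene models and with or without strand is not given in the sources used here.

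Whole reads were recovered as follows. In single-exon genes the RPKM values times length were whole multiples of 1 step per library, which gave scaling totals of 3834174 and 4256101 after rounding. Of 555 such genes, 95.9% came out whole in each library within 0.0001 reads. For every other gene the shortest length that made both read numbers whole (within 1e-05) was found. Multiples of it were weighed by closeness to an annotated length (scale 0.05 in the logarithm), by 3 times the logarithm of the factor, and by a cost of 5 unless the length matched exactly. Reads were not recovered for 32 genes, and for 1196 they are the smallest possible.

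Reads were compared between libraries by a two-sided exact binomial test over genes with at least 6 reads, with Benjamini-Hochberg adjustment over all of them (Python 3.11.15, scipy 1.17.1), after the test had been checked on simulated data. A gene was called at an adjusted p under 0.05. Separately, genes 2-fold apart at a mean of at least 1 RPKM were counted, and these are described as 2-fold apart, not as called. Log2 ratios use a pseudocount of 0.1 RPKM, which understates changes of low genes. With 1 group there is no test between groups.

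The members and gene lists were chosen with earlier results of these data known. Named were all members, the nearest gene to each, and from each list other than the cell type markers the genes with the highest means, those listed at 0 and those 2-fold apart at a mean of at least 1 RPKM. Other genes named were chosen after their values were seen. Alternatives are in the closing section. Deposited starts were read as counted from 0 and are given counted from 1. No value column lacked a sample. The RefSeq promoter table held none for Sox17. Some items, among them 1 gene of a list, are not reported here.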

Additional observations from a re-analysis of the deposited data

How the results depend on the processing

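The order of the members depended on the library: in uterus 2 alone 4 of 8 kept their place, and in uterus 1 alone all 8 did. Counted by reads without length, 6 of 8 kept it. On the TPM scale, which changes the unit, mean levels became 136.8 (Nr2f2), 118 (Sox17), 91.8 (Gata2), 86.1 (Hand2), 43.2 (Msx1), 31.3 (Foxo1), 23.1 (Cebpb) and 1.74 (Msx2). With the lengths of other annotated transcripts, an alternative added after seeing the data, the mean was 66.7 or 169 RPKM for Nr2f2, 103.7 for Sox17 and 40.2 for Gata2, and moved by less than 1 SD for Msx1, Msx2 and the Gata2 transcript of 3241 bases. Leaving out either library moves a mean of 2 by less than 1 SD by construction.

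The call of Foxo1 was lost with the smallest whole reads (adjusted p 0.347, exact binomial test), which are fewer by construction. With those reads 579 of 14866 genes were called, against 701 of 15095. All 40 alternative log2 ratios of the members kept their sign and lay within the counting interval, and no member was 2-fold apart under any of the 6 alternatives for that count. The 7 members detected at 1 RPKM in both uteri became 8 at a cut of 0.5 RPKM and 8 on the TPM scale. At a cut of 2 RPKM they stayed 7, and at 10 RPKM they became 6. The number of all genes 2-fold apart was 355 of 13647 tested. It became 153 of 13647 with a pseudocount of 1 RPKM, 1846 of 22740 without a filter and 48 of 7311 at a mean of 10 RPKM. With NM_ identifiers alone it was 232 of 12874. On the TPM scale, where more genes passed the filter, it was 736 of 14922. The number of genes tested differed, so these counts cannot be compared directly. No paired analysis was possible because both libraries belong to the same group.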
